A study of Homo sapiens with 63 samples.

Results

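The comparison described here sets COLO320DM cells given Helicon 4 at 3 µM for 48 h against cells given DMSO, the solvent, for 48 h. Its members are the 6 libraries whose labels carry these treatments, 3 per group, out of 63 libraries in the study. COLO320DM is an established human colorectal cancer cell line, known for extra copies of MYC on small chromosome fragments called double minutes. Helicon 4 belongs to the helicons, peptides held in a helix, and the study's title names the complex of β-catenin with TCF transcription factors as its target. The other groups used below are Helicon 4-neg, a companion peptide that the labels give no further description of, at 3 µM for 48 h, Helicon 4 at 1 and 10 µM for 48 h, and Helicon 4 at 3 µM with its own DMSO libraries at 6 and 24 h. Every group holds 3 libraries, and all cells shared the same line and the same serum-containing RPMI medium. The labels call the libraries biological replicates without saying whether they were separate cultures, so the p-values measure the spread between these libraries.

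In Wnt signalling, β-catenin that escapes breakdown enters the nucleus and binds TCF/LEF proteins, which sit on short DNA motifs near the target genes. Several of these targets encode brakes on the pathway itself: AXIN2 takes part in β-catenin breakdown, RNF43 and ZNRF3 remove Wnt receptors from the cell surface, and NOTUM, WIF1 and DKK1 act on the Wnt proteins or their receptors outside the cell. Because most colorectal cancers keep β-catenin active without a Wnt signal, the levels of these feedback genes are widely used as a readout of the pathway.

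The 6 libraries held 23564463, 21588350 and 27073383 reads with Helicon 4 and 16628595, 19871845 and 20538704 reads with DMSO, summed over the genes of the table, so every Helicon 4 library was the deeper. Levels are given as scaled CPM (CPM divided by a scaling factor for each library, as the authors deposited them), and 1 read was worth 0.0367 to 0.0622 scaled CPM. Markers of the labelled line were uneven. EPCAM, an epithelial surface protein, was at 1.77, 1.08 and 1.65 scaled CPM with Helicon 4 and 1.56, 1.17 and 1.19 with DMSO, and CDH1 (E-cadherin) had no reads in DMSO and at most 0.0735 scaled CPM with Helicon 4. KRT8, a keratin of simple epithelia, was at 314, 305 and 301 with Helicon 4 and 206, 209 and 225 with DMSO. CDX2, the intestinal transcription factor, stood at 2436, 2475 and 2440 scaled CPM with Helicon 4 and 3791, 3840 and 3977 with DMSO, while ELF3 and VIL1 were not in the table, and the summed level of the 9 measured colorectal epithelial markers of 11 was 2859 to 2901 with Helicon 4 and 4093 to 4315 with DMSO. Most of that sum was CDX2, and the other 8 summed to 419 to 446 with Helicon 4 and 302 to 338 with DMSO. Leukocyte markers (4 of 10 in the table) summed to 14.9 to 16.3 scaled CPM with Helicon 4 and 12.8 to 15.3 with DMSO, and markers of other epithelial lines (3 of 10) to 2.35 to 2.96 with Helicon 4 and 2.12 to 2.32 with DMSO. Fibroblast markers (8 of 10) summed to 29.7 to 71.9 scaled CPM with Helicon 4 and 10.1 to 47.3 with DMSO. Among these 8, 3 were called higher with Helicon 4, led by COL3A1, a collagen chain, against 30.8% of all genes. Their part in the results was not tested. In bulk RNA, fewer cells of a kind and less RNA per cell cannot be told apart.

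Some genes split the libraries in a way that ran across the treatments. CXCL8, a chemokine, read 0.130, 30.4 and 23.0 scaled CPM in Helicon 4 replicates 1, 2 and 3 and 0.124, 0.0531 and 27.9 in DMSO replicates 1, 2 and 3, and COL1A2, a collagen chain, was at 0, 16.2 and 15.4 with Helicon 4 and at 0, 0 and 15.9 with DMSO. GFAP, an intermediate filament gene, went the opposite way, at 28.8, 3.00 and 3.49 scaled CPM with Helicon 4 and 30.6, 32.8 and 2.89 with DMSO. Over all 63 libraries CXCL8 was at most 0.357 or at least 16.1 scaled CPM and SFRP1 at most 0.445 or at least 3.36, which together gave 4 sets of 15 or 16 libraries, each spread over treatments, times and replicate numbers. The labels name no batch, but the sets followed the order in which the samples are listed: each of the 55 libraries that has another 8 places before it was in the same set as that library. What differed between the sets in handling was not tested. Helicon 4 replicate 1 thus stood with DMSO replicates 1 and 2, and Helicon 4 replicates 2 and 3 with DMSO replicate 3. The level of 2362 of 13478 genes (17.5%) at 48 h differed between sets in limma. A term for the sets was added to the fit after seeing the data. With it, all 643 genes that differed between Helicon 4 and DMSO by more than 1 on the log2 scale kept their call and direction. All 643 had the same sign within each of the 2 sets that the 6 libraries fell into. For 642 of them the groups did not overlap, which fixes that sign in advance, so it is no separate check.

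**Figure D1:**
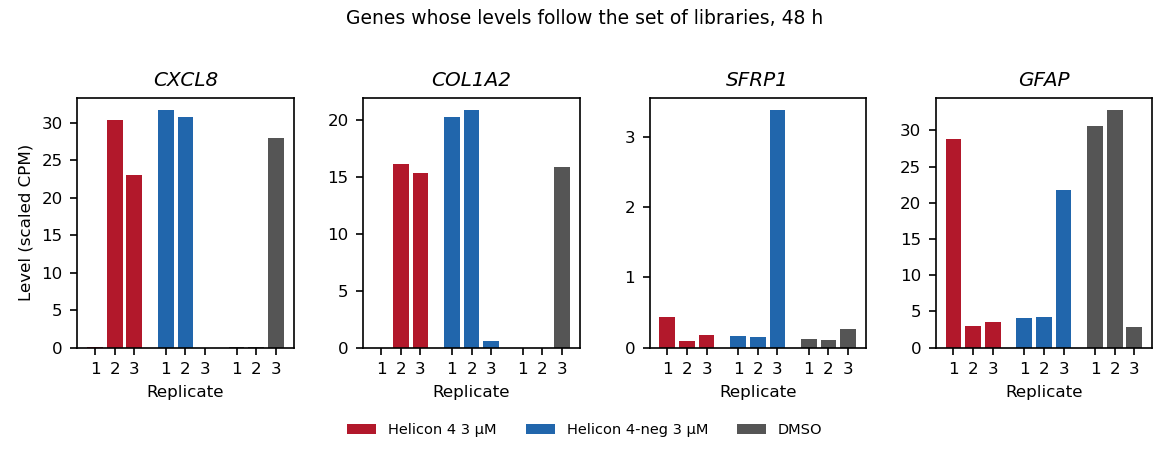
Levels in scaled CPM of CXCL8, COL1A2, SFRP1 and GFAP, 1 bar per library, for Helicon 4 and Helicon 4-neg at 3 µM and DMSO at 48 h. The Helicon 4 libraries and the DMSO libraries each divide between low CXCL8 with high GFAP and the reverse, and Helicon 4-neg replicate 3 alone has SFRP1 above 3.

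After 48 h at 3 µM, 4147 of 13478 genes (30.8%) were higher and 3836 (28.5%) lower with Helicon 4 than with DMSO (59.2% in all), at a Benjamini-Hochberg adjusted p below 0.05 in limma. The balance of directions depended on the scaling: centring each library on its median gave 3769 higher and 4189 lower, and edgeR on the recovered reads 3906 and 4028. Most of these differences were small: 61.5% of the called genes differed by less than 0.5 on the log2 scale, and 448 rose and 195 fell by more than 1. For 65.4% of all genes the 3 Helicon 4 values did not overlap the 3 DMSO values, so a lack of overlap alone is common here. The median log2 fold change over all genes was 0.03.

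Most genes listed as Wnt feedback inside the cell and at its receptors were low with Helicon 4. Of the 9 listed feedback genes, 8 fell, 0 rose and 1 did not pass the test, with a median log2 fold change of -1.38. Of all genes 28.5% were lower. AXIN2 (ENSG00000168646, chromosome 17, 65528563 to 65561647, GRCh38), a scaffold of the complex that breaks down β-catenin, was at 58.5, 58.7 and 62.3 scaled CPM with Helicon 4 and 169, 147 and 158 with DMSO. No Helicon 4 library came near a DMSO library, a difference of -1.38 on the log2 scale (SE 0.0537, limma adjusted p = 7.9e-16). NKD1 (ENSG00000140807, chromosome 16, 50548330 to 50649249), which dampens signalling through Dishevelled, was at 8.89, 9.66 and 8.89 with Helicon 4 and 35.6, 37.1 and 37.5 with DMSO, a log2 fold change of -1.90 (SE 0.0693, limma adjusted p = 3.1e-16). Its relative NKD2 was lower still, at 4.75, 3.99 and 4.56 scaled CPM with Helicon 4 and 31.1, 31.7 and 33.5 with DMSO. Both NKD genes thus stood apart from DMSO in every library.

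TNFRSF19 (ENSG00000127863, chromosome 13, 23570370 to 23676104), a TNF receptor family member and a known β-catenin target, fell furthest of the 9, to 7.47, 7.46 and 7.35 scaled CPM with Helicon 4, against 65.2, 58.7 and 57.7 with DMSO, a log2 fold change of -2.87 (SE 0.0951, limma adjusted p = 5.7e-17). SP5 (ENSG00000204335, chromosome 2, 170715351 to 170718078), a zinc finger repressor that is a direct Wnt target, was at 1.60, 1.92 and 2.68 scaled CPM with Helicon 4 and 9.90, 10.5 and 11.1 with DMSO (log2 fold change -1.92, SE 0.126, limma adjusted p = 9.1e-12). The receptor-removing ligases moved less: RNF43 was at 38.3, 36.7 and 45.5 with Helicon 4 and 67.4, 63.4 and 58.3 with DMSO, and both RNF43 and ZNRF3 had a log2 fold change of -0.64. BAMBI, a decoy receptor, fell by 1.11 on the log2 scale. LGR5, the stem cell receptor for R-spondins, was the exception, at 5.27, 4.32 and 4.45 scaled CPM with Helicon 4 and 5.48, 5.25 and 4.49 with DMSO, overlapping groups with a limma adjusted p of 0.5.

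Promoters of the 12 largest falls, and of the Wnt feedback, antagonist and pathway genes that fell, were searched for TCF-type motifs. TCF proteins bind DNA at such letters. Other named genes that fell were not searched. The search covered CTTTGAT, its variant CTTTGAA and its variant CTTTGTT on both strands of 300 bases around each start, from 250 before to 50 after it, in RefSeq GRCh38.p14. Of the 26 genes so chosen, 17 had a window in the table. At least 1 motif lay in 9 of their 24 windows (37.5%), against 11.5% of all 35116 windows. These genes were chosen for their fall, many of them from lists of Wnt genes. Windows of the same gene were counted separately and can overlap. The shares are therefore set side by side only, and their difference was not tested. Singly, the motifs were in 2.62%, 4.43% and 5.2% of all windows. The genes with a match were HDC, LINC01432, MEP1B, PRSS56, SP5, DKK1, TCF7 and TPBG. The 250 bases before the start are shown for the deepest fall with a match, HDC (minus strand, chr15:50265727-50265976), and for SP5 (plus strand, chr2:170715087-170715336) and DKK1 (plus strand, chr10:52314031-52314280), whose windows held more than 1. They are written 5′ to 3′ along the gene's strand, and capitals mark the motifs, with TTCAAAG being CTTTGAA on the other strand.
HDC: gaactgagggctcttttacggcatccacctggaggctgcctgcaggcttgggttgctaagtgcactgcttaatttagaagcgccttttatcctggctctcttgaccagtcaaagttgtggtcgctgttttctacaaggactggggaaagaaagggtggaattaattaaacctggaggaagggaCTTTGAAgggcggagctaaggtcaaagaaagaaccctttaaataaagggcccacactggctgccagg
SP5: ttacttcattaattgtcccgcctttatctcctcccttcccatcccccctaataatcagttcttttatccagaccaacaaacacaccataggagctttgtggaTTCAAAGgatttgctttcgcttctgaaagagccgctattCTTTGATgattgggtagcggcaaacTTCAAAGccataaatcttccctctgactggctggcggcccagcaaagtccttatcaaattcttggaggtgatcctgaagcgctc
DKK1: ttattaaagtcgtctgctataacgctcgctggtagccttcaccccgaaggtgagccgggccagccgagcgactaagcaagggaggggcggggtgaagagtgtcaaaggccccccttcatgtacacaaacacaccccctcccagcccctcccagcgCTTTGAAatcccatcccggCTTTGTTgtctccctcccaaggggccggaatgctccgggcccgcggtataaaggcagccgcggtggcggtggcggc
SP5 thus carried 3 matches, DKK1 2 and HDC 1. A match is a description of these letters, not evidence of binding.

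The secreted and membrane antagonists were mixed in direction. Of 12 tested, 6 fell, 3 rose and 3 did not pass, with a median log2 fold change of -0.18. The shares of all genes were 28.5% lower and 30.8% higher. WIF1 (ENSG00000156076, chromosome 12, 65050626 to 65121566), which binds Wnt proteins, was at 3.15, 3.14 and 3.20 scaled CPM with Helicon 4 and 35.3, 31.7 and 31.1 with DMSO (log2 fold change -3.02, SE 0.099, limma adjusted p = 4.8e-17). NOTUM (ENSG00000185269, chromosome 17, 81952507 to 81961840), an enzyme that strips the lipid from Wnt proteins, was at 14.2, 15.4 and 14.4 with Helicon 4 and 83.6, 92.4 and 91.4 with DMSO (log2 fold change -2.53, SE 0.0618, limma adjusted p = 2.3e-19). Both groups were tight and far apart for each gene.

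APCDD1 (ENSG00000154856, chromosome 18, 10454628 to 10489948), a membrane glycoprotein that interferes with Wnt at its receptors, was at 113, 103 and 104 scaled CPM with Helicon 4 and 439, 436 and 427 with DMSO (log2 fold change -2.02, SE 0.0381, limma adjusted p = 2.4e-21). DKK1 (ENSG00000107984, chromosome 10, 52314296 to 52318042), which blocks the co-receptor LRP6, was at 0.864, 2.25 and 1.69 with Helicon 4 and 7.59, 7.06 and 8.82 with DMSO (log2 fold change -1.79, SE 0.18, limma adjusted p = 1.2e-08). The Helicon 4 libraries of DKK1 spread widely but stayed below every DMSO library. DKK4, another co-receptor blocker, had no reads in any Helicon 4 library and was at 0.311, 0.265 and 0.361 scaled CPM with DMSO. Any value of DKK4 below that of TPBG leaves the list's median as it is.

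SOSTDC1, an antagonist of BMP and Wnt signals, rose instead, to 8.59, 8.21 and 9.74 scaled CPM with Helicon 4, against 3.17, 3.18 and 3.35 with DMSO. KREMEN1, the DKK1 receptor, rose by a log2 fold change of 0.33. The remaining calls were weak: DKK2 (log2 fold change 0.39, limma adjusted p = 0.029) and TPBG (-0.20, adjusted p = 0.024) lost theirs under some of the alternatives tried, and SFRP1, whose level followed the sets of libraries, did not pass.

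Among the parts of the pathway itself, the message for β-catenin was higher, not lower. CTNNB1 (ENSG00000168036, chromosome 3, 41194741 to 41260096) was at 475, 473 and 482 scaled CPM with Helicon 4 and 363, 334 and 323 with DMSO, a log2 fold change of 0.49 (SE 0.0548, limma adjusted p = 7e-08). In the list of the β-catenin and destruction complexes, 8 of 14 rose and 2 fell (median 0.22), against 30.8% and 28.5% of all genes. CSNK1A1, the kinase that starts β-catenin phosphorylation, rose by a log2 fold change of 1.05 and APC by 0.66. CSNK1A1 was also higher with Helicon 4-neg than with DMSO, by 0.80, and the test between the peptides did not pass for it. GSK3A and AXIN1 were the 2 that fell, by 0.34 and 0.19.

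The TCF/LEF factors divided by gene. TCF7 was at 7.43, 7.65 and 9.15 scaled CPM with Helicon 4 and 24.3, 22.0 and 27.6 with DMSO, and LEF1 at 57.0, 57.2 and 61.5 with Helicon 4 and 128, 128 and 134 with DMSO. Both, themselves known Wnt targets, fell clear of the DMSO range, with log2 fold changes of -1.50 and -1.14. TCF7L2, a main TCF of the intestine, was at 15.8, 14.4 and 16.6 with Helicon 4 and 15.1, 13.4 and 16.5 with DMSO, a difference of 0.06 whose 95% interval ran from -0.18 to 0.30. HBP1, a repressor of Wnt target genes, rose by 1.69. Over this list of 10, 3 rose and 2 fell, close to or below the 30.8% higher and 28.5% lower of all genes.

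The Frizzled and LRP receptors showed both directions, with 6 of 14 higher and 5 lower, against 30.8% and 28.5% of all genes. PTK7, a co-receptor, was at 222 scaled CPM in each Helicon 4 library and at 129, 132 and 122 with DMSO. FZD7 and FZD5 rose by log2 fold changes of 1.04 and 0.93, whereas FZD10, FZD8, LRP5 and FZD1 fell by 1.39, 1.13, 0.80 and 0.72.

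Of 16 intestinal stem and crypt genes, 7 fell and 4 rose (median -0.10), against 28.5% and 30.8% of all genes. ASCL2, the transcription factor of crypt base stem cells, was at 15.7, 15.2 and 15.0 scaled CPM with Helicon 4 and 45.4, 49.4 and 48.3 with DMSO, a log2 fold change of -1.58 (limma adjusted p = 3.1e-11). EPHB3, a receptor that positions crypt cells and a known Wnt target in the gut, went up, to 33.2, 30.9 and 33.7 with Helicon 4, against 7.84, 6.42 and 6.76 with DMSO. Among 11 lineage genes 4 rose and 3 fell, close to the shares of all genes, 30.8% and 28.5%. ISX, an intestinal homeobox gene, was at 11.5, 11.5 and 11.6 scaled CPM with Helicon 4 and at 0.124, 0 and 0.0516 with DMSO, and CDX2 fell by 0.66 on the log2 scale.

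**Figure D2:**
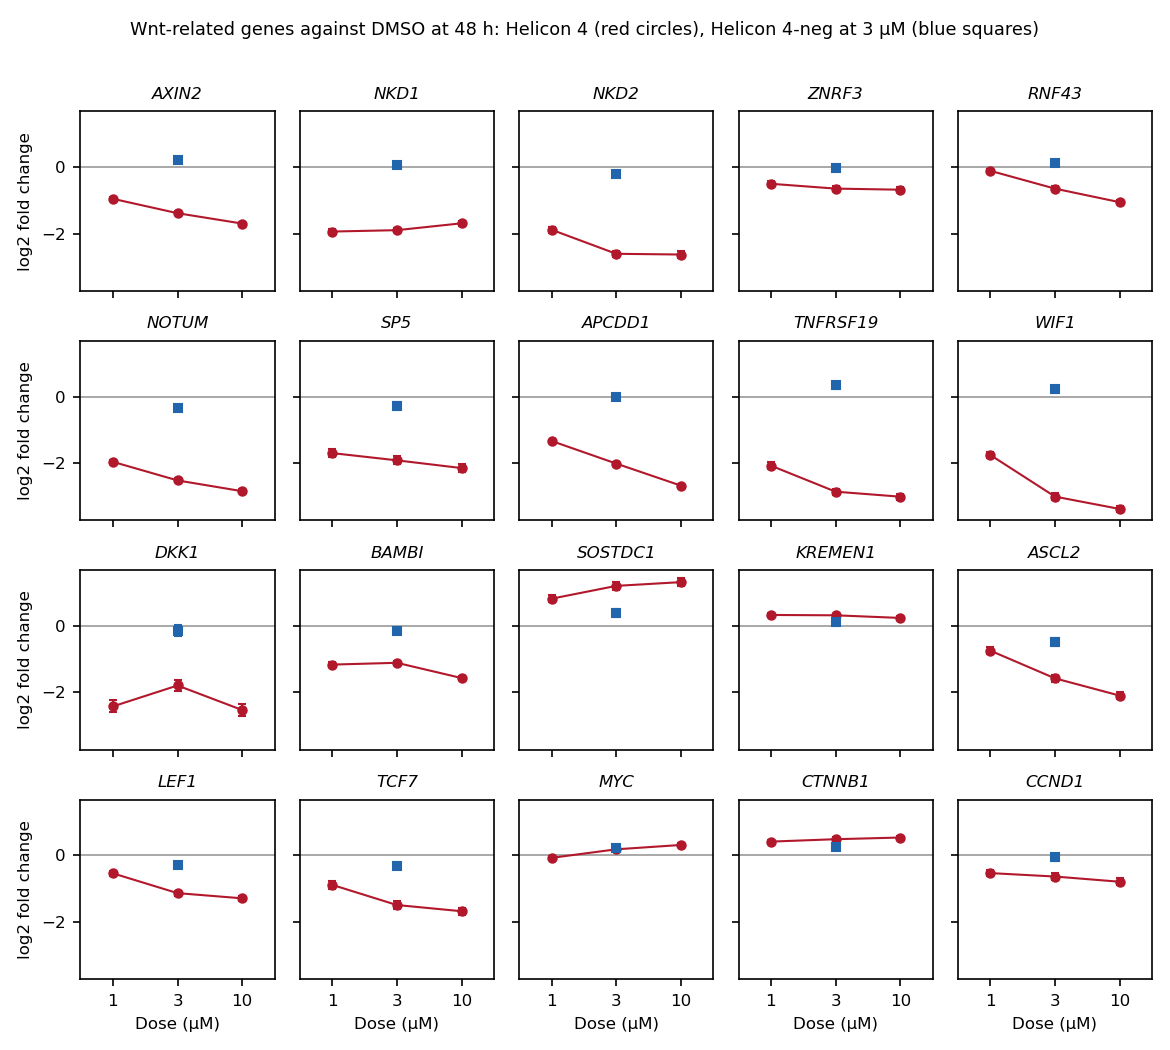
Log2 fold changes against DMSO at 48 h of 20 Wnt-related genes at 1, 3 and 10 µM Helicon 4 (red circles) and 3 µM Helicon 4-neg (blue squares), all against the same 3 DMSO libraries. Bars are SE from limma. AXIN2 and APCDD1 are lower at each higher dose, while NKD1 is at -1.94, -1.90 and -1.69.

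MYC, amplified in this line, moved little at 48 h. It was at 2839, 2995 and 3155 scaled CPM with Helicon 4 and 2814, 2506 and 2592 with DMSO, a log2 fold change of 0.18 (SE 0.0509, limma adjusted p = 0.0034), with every Helicon 4 library above every DMSO library. Its neighbours on chromosome 8 moved more: PVT1, a noncoding gene, was at 877, 907 and 866 with Helicon 4 and 562, 540 and 536 with DMSO, whereas CCAT2 and CASC11 fell by 1.56 and 0.80 on the log2 scale. CCND1, encoding cyclin D1, fell by 0.64, to 14.6, 19.6 and 18.7 scaled CPM, against 26.7, 26.2 and 30.6 with DMSO.

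Among called genes with a mean log2 level of at least 3, the 12 largest rises and 12 largest falls included many genes outside the Wnt pathway. TAC3 (ENSG00000166863, chromosome 12, 57010000 to 57028883), the precursor of the neuropeptide neurokinin B, rose most of these, to 63.9, 60.0 and 58.2 scaled CPM with Helicon 4, against 0.685, 1.17 and 0.671 with DMSO (log2 fold change 5.08, SE 0.164, limma adjusted p = 3.7e-17). TMSB4X (ENSG00000205542, chromosome X, 12975108 to 12977227), which binds actin monomers, was at 396, 409 and 362 with Helicon 4 and 35.3, 40.1 and 44.6 with DMSO (3.25, SE 0.125, limma adjusted p = 6.9e-16). BMF (ENSG00000104081, chromosome 15, 40087890 to 40108892), a BH3-only protein that promotes apoptosis, was at 52.4, 52.0 and 49.5 with Helicon 4 and 4.11, 4.88 and 4.80 with DMSO (3.23, SE 0.0914, limma adjusted p = 3e-18). For each of the 3 genes, every Helicon 4 library stood far above every DMSO library.

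The other 9 leading rises had log2 fold changes of 2.69 to 4.37: CA10, TNMD, HIST1H2AC, HOXD1, PCP4, TMCC3, RGS2, CTNNA2 and EDIL3. TNMD, a membrane glycoprotein best known from tendon, was at 49.7, 50.4 and 52.3 scaled CPM with Helicon 4 and 2.61, 3.45 and 3.66 with DMSO. RGS2 speeds the switching off of G proteins, CTNNA2 links cadherins to actin in neurons, and HOXD1 is a homeobox factor.

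HDC (ENSG00000140287, chromosome 15, 50241947 to 50266026), the enzyme that makes histamine, fell most of them, to 12.7, 12.5 and 12.1 scaled CPM with Helicon 4, against 175, 157 and 166 with DMSO (log2 fold change -3.63, SE 0.0579, limma adjusted p = 1.1e-22). CHGA, a hormone granule protein, was the other neuroendocrine gene called lower, at -0.49, a call that some alternatives did not keep. The summed level of the 11 measured neuroendocrine genes was 1014 to 1073 scaled CPM with Helicon 4 and 1005 to 1016 with DMSO. Among the 10 tested, 2 rose and 2 fell, against 30.8% and 28.5% of all genes. After HDC came WIF1, TNFRSF19, LINC01432, NKD2, MEP1B, ETV5, NRK, NOTUM, C9orf3, PRSS56 and PRSS23. The 12 leading falls kept 7.51% to 17.5% of their DMSO level. MEP1B (ENSG00000141434, chromosome 18, 32185069 to 32220404), a brush border protease subunit, was at 9.80, 9.95 and 8.60 with Helicon 4 and 68.1, 60.4 and 56.9 with DMSO, and ETV5, an ETS factor induced by MAPK signalling, at 18.6, 19.8 and 22.4 with Helicon 4 and 121, 121 and 123 with DMSO.

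**Figure D3:**
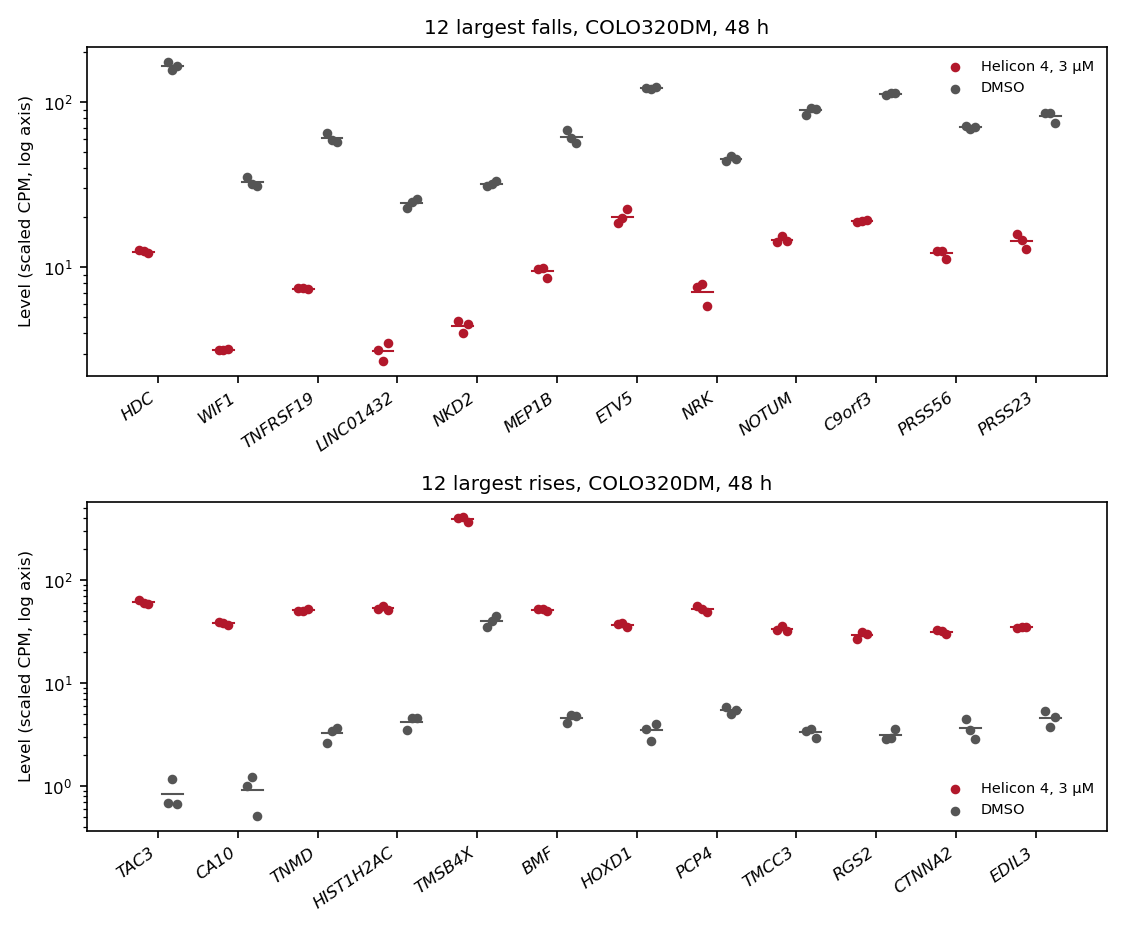
Scaled CPM on a log axis of the 12 largest falls (upper panel) and 12 largest rises (lower panel), 1 point per library with a line at the group mean, Helicon 4 at 3 µM in red and DMSO in grey. The groups do not overlap for any of the 24 genes, which the choice of genes required.

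Genes of cell growth and division fell together with Helicon 4, each against a background of 28.5% of all genes lower. Of 32 DNA replication genes, 31 fell, 0 rose and ORC1 did not pass, with a median log2 fold change of -0.69. MCM3 (ENSG00000112118, chromosome 6, 52264009 to 52284881), a subunit of the replicative helicase, was at 144, 145 and 145 scaled CPM with Helicon 4 and 268, 267 and 271 with DMSO (-0.89, SE 0.036, limma adjusted p = 1.8e-15). CDT1, which loads that helicase, fell by 1.18 and PCNA, the sliding clamp, by 0.83. Of 32 mitosis genes, 30 fell and 0 rose (median -0.48). TPX2, a spindle assembly factor, was at 175, 175 and 179 with Helicon 4 and 302, 301 and 302 with DMSO, and AURKB, a mitotic kinase, fell by 0.88.

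Ribosome biogenesis and nucleotide synthesis followed the same direction. Of 30 ribosome biogenesis genes, 26 fell and 0 rose (median -0.50), among them NOLC1, a nucleolar chaperone, at 129, 126 and 133 scaled CPM with Helicon 4 and 204, 203 and 197 with DMSO, and NOP2, an rRNA methyltransferase, with a log2 fold change of -0.73. Of 26 nucleotide and folate synthesis genes, 23 fell and 0 rose (median -0.39). RRM2, a subunit of ribonucleotide reductase, was at 119, 121 and 117 with Helicon 4 and 229, 231 and 221 with DMSO, and PAICS, of purine synthesis, fell by 0.91. The ribosomal proteins themselves did not share this, with 7 of 30 lower, 3 higher and 20 not passing, against 28.5% of all genes lower and 30.8% higher.

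The cyclins and CDK inhibitors of G1 had 7 of 20 higher and 7 lower, close to the shares of all genes, 30.8% and 28.5%. CCNG2 (ENSG00000138764, chromosome 4, 77157151 to 77433388), a cyclin of resting cells, was at 144, 146 and 140 scaled CPM with Helicon 4 and 34.6, 34.3 and 34.9 with DMSO (2.02, SE 0.0548, limma adjusted p = 1.7e-18). CCND2 fell by 1.42 and E2F1, which drives S phase genes, by 0.94, while CCND3 rose by 0.52. CDKN1A, encoding the inhibitor p21, was at 2.50, 2.30 and 1.84 with Helicon 4 and 1.74, 1.64 and 2.79 with DMSO, overlapping groups with a difference of 0.09 (95% interval -0.23 to 0.40).

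Genes switched on by FOXO factors or in resting cells rose: 18 of 21, with 1 lower and a median of 0.93, against 30.8% of all genes higher. SESN3, a stress-induced inhibitor of mTORC1, was at 63.9, 66.4 and 65.2 scaled CPM with Helicon 4 and 14.3, 15.6 and 16.0 with DMSO. TP53INP2, an autophagy factor, PIK3IP1, an inhibitor of PI3K, and BTG2, an antiproliferative gene, rose by log2 fold changes of 1.84, 1.63 and 1.60. IRS2, an insulin receptor adaptor, was the 1 that fell, by 1.28. The p53 target list had 7 of 17 higher and 5 lower, against 30.8% and 28.5% of all genes.

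The BCL2 family and cell death list had 11 of 22 higher and 6 lower, with a median of 0.10, against 30.8% and 28.5% of all genes. Besides BMF, BCL2L11 (BIM) rose by 0.86 and BBC3 (PUMA) by 0.55, both promoters of apoptosis, as did BCL2L1, whose main product protects cells, by 0.73. PMAIP1 and BAX, which also promote apoptosis, fell by 0.65 and 0.38.

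Histone genes of the replication-dependent kind rose in these poly(A)-enriched libraries, 14 of 15 with a median of 1.40, against 30.8% of all genes. HIST1H2AC was at 52.4, 56.6 and 50.7 scaled CPM with Helicon 4 and 3.49, 4.62 and 4.54 with DMSO, and HIST2H2BE and HIST1H1C rose by 2.04 and 1.99. Only transcripts with a poly(A) tail are captured here, and most replication-dependent histone messages carry none. Reads of near-identical histone copies may also be split between them, so single histone values are uncertain.

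Metabolic lists moved in both directions, each against a background of 28.5% of all genes lower and 30.8% higher. Cholesterol synthesis fell in 19 of 24 genes, with 2 higher (median -0.51). DHCR7, the enzyme of its last step, was at 122, 120 and 124 scaled CPM with Helicon 4 and 238, 229 and 242 with DMSO, and SQLE and INSIG1 fell by 0.95 and 0.94. Chaperones of the endoplasmic reticulum and unfolded protein response fell in 15 of 21, with 3 higher (median -0.49). PDIA4, a disulfide isomerase, was at 171, 172 and 177 with Helicon 4 and 383, 380 and 382 with DMSO, and XBP1 and HSPA5 (BiP) fell by 0.84 and 0.57.

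Lysosome and autophagy genes rose in 16 of 29, with 5 lower (median 0.22). The shares of all genes, 30.8% higher and 28.5% lower, apply to each list of this paragraph. ATP6V1A, a subunit of the proton pump that acidifies lysosomes, was at 309, 306 and 317 scaled CPM with Helicon 4 and 135, 141 and 145 with DMSO, and NEU1, GABARAPL1 and SQSTM1 rose by 1.03, 1.03 and 0.83. Of 22 ATF4 targets and tRNA synthetases, 9 fell and 4 rose: SLC7A5, an amino acid transporter, fell by 0.95, whereas DDIT4, an inhibitor of mTORC1, rose by 1.64. Glycolysis and hypoxia genes had 9 of 23 lower and 7 higher, with HK2 down by a log2 fold change of -0.91 and NDRG1 up by 1.96, and NRF2 targets had 8 of 13 lower and 4 higher. Heat shock chaperones, with 6 of 16 higher and 4 lower, and nuclear respiratory subunits, with 7 of 21 higher and 6 lower, were close to the background.

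Genes of adhesion and the cytoskeleton changed unevenly. Of 18 cadherin and catenin junction genes, 9 rose and 2 fell (median 0.25), against 30.8% and 28.5% of all genes. JUP (ENSG00000173801, chromosome 17, 41754604 to 41786931), plakoglobin, the closest relative of β-catenin, was at 88.2, 93.9 and 107 scaled CPM with Helicon 4 and 21.7, 23.9 and 22.9 with DMSO (2.03, SE 0.0917, limma adjusted p = 1.3e-14). PKP2 and CTNND1, other armadillo proteins, rose by 0.80 and 0.60. Actin-binding genes had 7 of 22 higher and 9 lower, against 30.8% and 28.5% of all genes. GSN, the filament-severing gelsolin, was at 84.0, 89.9 and 80.8 with Helicon 4 and 14.1, 14.5 and 16.6 with DMSO, while TAGLN2 and CNN3 fell by 0.45 and 0.39.

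Of 14 ID genes and BMP targets, 10 rose and 3 fell (median 0.43), against 30.8% and 28.5% of all genes. ID3 and ID2, inhibitors of bHLH factors, rose by 0.75 and 0.91 and SMAD7 by 1.16, while MSX1 fell by 0.63. Among MAPK feedback genes 6 of 17 rose and 6 fell, with SPRED2 down by a log2 fold change of -0.99 beside ETV5, and ETV1 up by 0.94. Eph receptors and ephrins had 5 of 15 in each direction, and both lists were close to the background of all genes. The Notch genes had 5 of 12 lower and 1 higher, against 28.5% and 30.8% of all genes. JAG2, a Notch ligand, had a log2 fold change of -0.89.

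Lists whose genes differ between the sets of libraries need more care. Interferon genes were called higher in 8 of 22, near the 30.8% of all genes, with 0 lower and a median of 0.56, but the level of 16 of the 22 differed between sets, and with the set term the median was 0.25 and 10 rose. IFIH1, a sensor of viral RNA, was at 43.0, 49.8 and 45.7 scaled CPM with Helicon 4 and 23.5, 22.8 and 21.9 with DMSO, without overlap. NF-κB targets had 4 of 13 higher, about the share of all genes, and 1 lower, with a median of 0.52 that was 0.18 with the set term, and the fibroblast markers a median of 0.77 that was 0.25. COL3A1 was at 19.6, 24.3 and 24.0 with Helicon 4 and 4.11, 4.19 and 5.00 with DMSO, with a log2 fold change of 2.12 and of 2.02 with the set term. Mitochondrially encoded transcripts were lower in 10 of 13 (median -0.58), against 28.5% of all genes, and all 13 differed between the sets. With the set term 12 were lower and the median was -0.61. MT-ND1, a complex I subunit, was at 1815, 1675 and 1884 with Helicon 4 and 2867, 2901 and 3198 with DMSO, and the call of MT-ND5 was lost when Helicon 4 replicate 2 was left out.

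**Figure D4:**
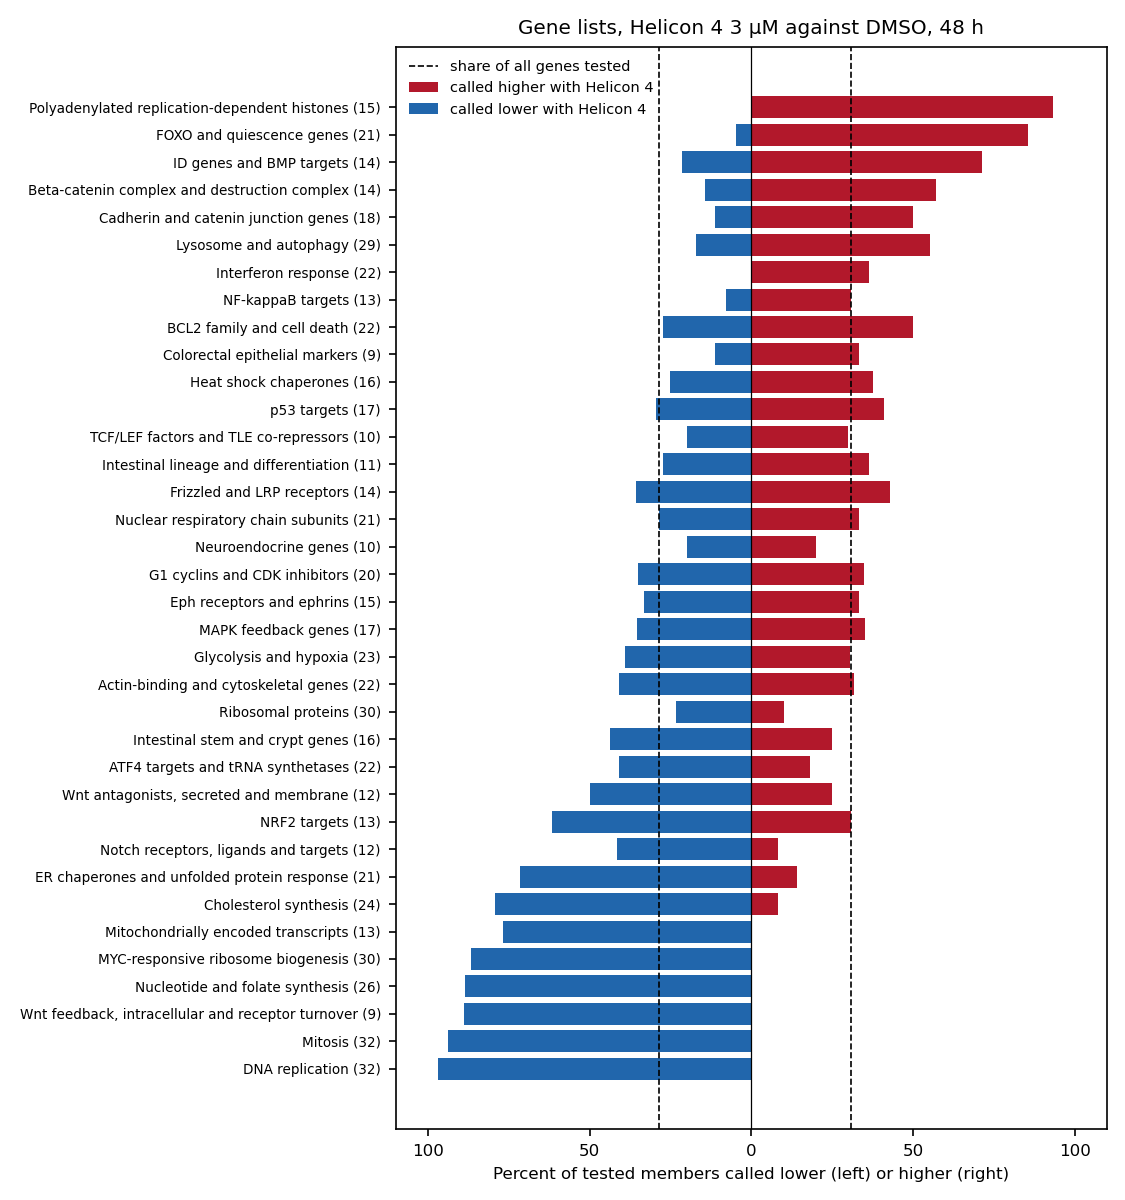
Percent of tested members called lower (blue, left) or higher (red, right) with 3 µM Helicon 4 than with DMSO at 48 h, by gene list. Lists with at least 9 tested members are shown, with the number tested in brackets. They are ordered by the share called higher minus the share called lower. Dashed lines mark the shares of all genes, 28.5% lower and 30.8% higher. DNA replication and mitosis genes stand at the low end and histone and FOXO genes at the high end.

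The companion peptide gives a second comparator at the same dose and time. Helicon 4 differed from Helicon 4-neg, both at 3 µM, by 3496 genes higher (25.9%) and 3579 lower (26.6%), 52.5% in all, and 570 of these by more than 1 on the log2 scale. Helicon 4-neg differed from DMSO by 2133 genes higher (15.8%) and 1682 lower (12.5%), 28.3% in all, but 2 of these passed 1. That balance turned under other scalings, with 1558 higher and 2193 lower after median centring and 1818 and 1906 in edgeR. Leaving out Helicon 4-neg replicate 3, which differed most from its group, gave 1092 higher and 876 lower, and leaving out DMSO replicate 2 or DMSO replicate 3 gave 1392 and 1071 or 1385 and 997. These comparisons share libraries of Helicon 4, Helicon 4-neg or DMSO, so their values are set side by side only.

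All 24 leading genes passed the test between the peptides in the direction seen against DMSO, and their choice used the same Helicon 4 libraries. AXIN2 was at 58.5, 58.7 and 62.3 scaled CPM with Helicon 4 and 174, 187 and 194 with Helicon 4-neg, a difference of -1.61 (SE 0.0537, limma adjusted p = 5.6e-17), and WIF1 at 3.15, 3.14 and 3.20 with Helicon 4 and 34.1, 37.4 and 44.1 with Helicon 4-neg. TAC3 was at 63.9, 60.0 and 58.2 with Helicon 4 and 0.547, 1.07 and 0.611 with Helicon 4-neg. Between Helicon 4-neg and DMSO, APCDD1 differed by 0.00 with a 95% interval from -0.08 to 0.08, BMF by 0.00 (-0.19 to 0.19) and HDC by -0.08 (-0.20 to 0.04). For the 24 leading genes that difference ran from -0.44 to 0.45, and 9 passed the test, among them NOTUM at -0.33 and TNFRSF19 at 0.34. AXIN2 was called higher with Helicon 4-neg than with DMSO, by 0.23, and ASCL2 lower, by -0.48.

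By list, the Wnt feedback genes were lower with Helicon 4 than with Helicon 4-neg in 8 of 9 (median -1.61). With Helicon 4-neg, 2 of 9 were higher and 0 lower than with DMSO (median -0.03). The shares of all genes were 25.9% higher and 26.6% lower with Helicon 4 than with Helicon 4-neg. For Helicon 4-neg against DMSO they were 15.8% and 12.5%. DNA replication genes were lower with Helicon 4 than with Helicon 4-neg in 32 of 32 (median -0.71), and with Helicon 4-neg 8 were higher and 4 lower than with DMSO (median 0.05). Cholesterol genes were lower than with Helicon 4-neg in 21 of 24, and 12 of 24 were higher and 1 lower with Helicon 4-neg than with DMSO. FOXO genes were higher than with Helicon 4-neg in 17 of 21 and histone genes in 14 of 15.

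Interferon genes had a median of 0.09 between Helicon 4 and Helicon 4-neg and 0.40 between Helicon 4-neg and DMSO, where 2 of 22 were called higher, and NF-κB targets had medians of 0.01 and 0.34. The level of 16 of 22 interferon genes and 7 of 13 NF-κB targets differed between the sets of libraries. CXCL8 was high in Helicon 4-neg replicates 1 and 2 but only in replicate 3 of DMSO. The medians of this paragraph carry no set term, so peptide and set cannot be told apart in them. Ribosomal proteins were higher with Helicon 4 than with Helicon 4-neg in 23 of 30 (median 0.20), and 25 of 30 were lower with Helicon 4-neg than with DMSO (median -0.27). MYC was at 2839, 2995 and 3155 scaled CPM with Helicon 4 and 3180, 3065 and 3017 with Helicon 4-neg, a difference of -0.04 (95% interval -0.15 to 0.06). Mitochondrially encoded transcripts were lower with Helicon 4-neg than with DMSO in 9 of 13 (median -0.61), and 1 of 13 differed between the peptides (median 0.03). In Helicon 4-neg replicate 3, MT-ND1 was at 1098 scaled CPM, against 2420 and 2582 in its other libraries. CTNNB1 was intermediate, higher with Helicon 4 than with Helicon 4-neg by 0.23 and higher with Helicon 4-neg than with DMSO by 0.26. RSRP1 went furthest down with Helicon 4-neg, to 18.2, 18.8 and 18.7 scaled CPM, with 31.9, 29.3 and 32.4 with Helicon 4 and 41.4, 43.1 and 43.9 with DMSO. CYP51A1, of cholesterol synthesis, was the largest rise with Helicon 4-neg (1.05), with 15.4, 14.5 and 30.1 scaled CPM in its libraries and 10.5, 8.59 and 7.07 with DMSO.

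**Figure D5:**
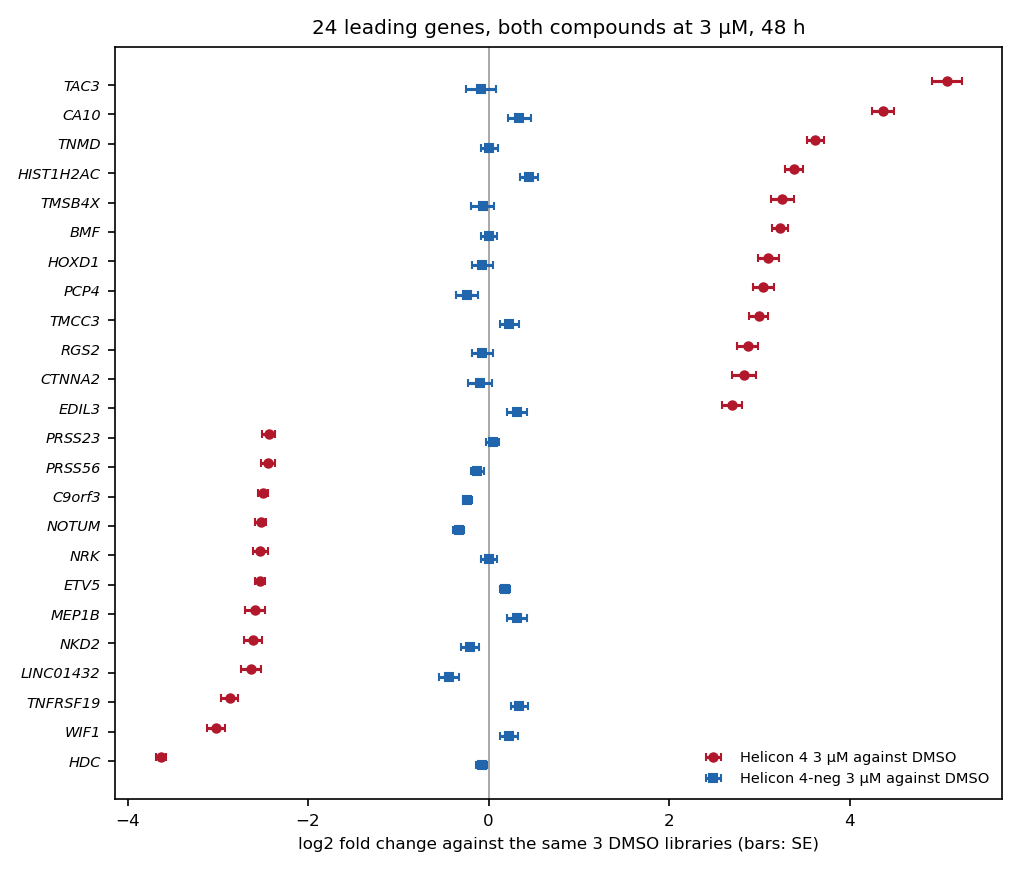
Log2 fold changes against DMSO at 48 h of the 24 leading genes, with Helicon 4 at 3 µM as red circles and Helicon 4-neg at 3 µM as blue squares. Bars are SE from limma, and the same 3 DMSO libraries serve both. The genes spread from -3.63 to 5.08 for Helicon 4 and from -0.44 to 0.45 for Helicon 4-neg.

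Few genes differed between the higher doses. Between 10 and 3 µM, 285 genes (2.11%) were higher at 10 µM and 350 (2.6%) lower, 4.71% in all, 8 of them by more than 1, and for 86.6% of genes the 95% interval of the difference lay within 0.5 of 0 on the log2 scale. These counts are loose: leaving out any 1 of Helicon 4 10 µM replicates 1 and 2 or 3 µM replicates 1 and 2 gave 58 to 109 higher and 116 to 160 lower, while fitting only the 2 groups gave 671 and 707. Between 3 and 1 µM, 1614 genes (12%) were higher at 3 µM and 1415 (10.5%) lower, 22.5% in all, 96 by more than 1, and leaving out 1 µM replicate 3 gave 1043 higher. Here too the balance turned, with 1247 higher and 1712 lower after median centring and 1348 and 1647 in edgeR. The 3 µM libraries all had low SFRP1 and the 1 µM libraries all had high SFRP1, so these doses shared no set of libraries. Dose and set therefore cannot be told apart from these libraries alone. With the term for the sets, which draws on the other groups of 48 h, 2059 were higher and 1757 lower. The 10 and 3 µM groups shared only the set that held 10 µM replicate 3 and 3 µM replicate 1. Dose and set are thus largely mixed there too, and with the set term 268 genes were higher at 10 µM and 248 lower. All 24 leading genes were further from DMSO at 3 µM than at 1 µM, which their choice on the 3 µM and DMSO libraries favours, and 8 differed between 10 and 3 µM.

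The Wnt genes followed at least 3 courses. AXIN2 stepped down at each dose, with 80.0, 83.6 and 80.2 scaled CPM at 1 µM, the 3 µM values above and 50.2, 46.7 and 47.1 at 10 µM. APCDD1 did the same, with log2 fold changes against DMSO of -1.34, -2.02 and -2.68 at 1, 3 and 10 µM, and RNF43 with -0.10, -0.64 and -1.05. NKD1 was as low at 1 µM, with -1.94, as at 3 µM, with -1.90, and at -1.69 at 10 µM. The difference between 3 and 1 µM was 0.04 with a 95% interval from -0.10 to 0.19.

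DKK1 was least low at 3 µM, with log2 fold changes against DMSO of -2.43, -1.79 and -2.53 at 1, 3 and 10 µM. It was called higher at 3 µM than at 1 µM, by 0.63 (limma adjusted p = 0.014), and lower at 10 µM than at 3 µM, by -0.74 (adjusted p = 0.02), at levels of a few scaled CPM. Since the 3 µM libraries shared few or no sets with the other doses, dose and set cannot be told apart in this course. In DNA replication genes 29 of 32 were lower at 3 µM than at 1 µM (median -0.28), and 3 of 32 lower at 10 µM than at 3 µM. The shares of all genes lower were 10.5% and 2.6%. FOXO genes were higher at 3 µM than at 1 µM in 14 of 21 and histone genes in 10 of 15, against 12% of all genes. Between 10 and 3 µM, where 4.71% of all genes were called, no cholesterol, lysosome, endoplasmic reticulum or histone gene of these lists was.

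Some genes kept moving between 3 and 10 µM or turned round, with the same limit from the sets of libraries. LIX1 (ENSG00000145721, chromosome 5, 97091867 to 97142872) was at 101, 102 and 105 scaled CPM in DMSO, 103, 111 and 104 at 1 µM, 45.1, 44.9 and 48.4 at 3 µM and 21.8, 19.0 and 22.5 at 10 µM, so that 1 µM overlapped DMSO and each further dose was lower. KCNJ13, a potassium channel, had log2 fold changes of 1.18, 2.31 and 3.39 at 1, 3 and 10 µM. PLK2, a polo-like kinase, was above DMSO at 1 and 3 µM, by 0.94 and 0.41, and below it at 10 µM, by -0.48. CRABP2, a retinoic acid carrier, was at -0.85, 0.02 and 0.81, and GREM1, a BMP antagonist, at -0.37, 0.05 and -1.01. INHBB, an activin subunit, fell back with dose, at 1.66, 1.09 and 0.41.

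At 3 µM more genes were called at the later times. Helicon 4 and DMSO differed at 6 h by 607 genes higher (4.65% of 13057) and 590 lower (4.52%), 9.17% in all, at 24 h by 2744 higher (20.8% of 13213) and 3226 lower (24.4%), 45.2% in all, and 3, 214 and 643 genes differed by more than 1 at 6, 24 and 48 h. NKD1 and DKK1 were already lower than in DMSO at 6 h, with log2 fold changes of -0.73 (limma adjusted p = 3.4e-07) and -0.83 (adjusted p = 0.0032). At 6 h WIF1 was at 0.15, which did not pass, and HDC was called higher, at 0.30 (limma adjusted p = 0.0014), and at 24 h it stood at -3.03. NKD1 was at -1.91 at 24 h and -1.90 at 48 h, and AXIN2 at -0.35, -1.35 and -1.38 at 6, 24 and 48 h. Of the 24 leading genes all passed the test in the same direction at 24 h. At 6 h, 6 passed it, counted in either direction and with HDC opposite to its later fall, and the values ran from -0.29 to 0.30.

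Timing varied among the growth genes named. MCM3 had log2 fold changes of 0.03, -0.73 and -0.89 at 6, 24 and 48 h, and TPX2 -0.05, -0.13 and -0.77. AURKB was at 0.09, -0.05 and -0.88. CDT1 had -0.24, -0.14 and -1.18. At 24 h MCM3 and TPX2 passed the test and AURKB and CDT1 did not.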

How the data were processed

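Poly(A)-enriched stranded total RNA of COLO320DM cells was sequenced, and the labels place 63 libraries in 21 groups of 3. Per the submitters' processing notes, reads met Trimmomatic 0.39, the aligner STAR 2.7.7a on GRCh38, featureCounts (Subread 2.4.2) and edgeR 4.0.2, in no stated order. The annotation and the use of strand in counting are not given in the sources used here, so antisense genes cannot be told from their partners with certainty. The deposited signal of each gene and library, for 13962 genes, acts like CPM over a library-specific scaling factor: column sums were 0.930 to 1.06 times their geometric mean, and 100% of values were whole multiples of 1 read within 0.01 read. The reads so recovered summed to 16628595 to 32860333 per library (median 22123187). Of 63 replicate pairs 0 were identical, and chi-square per gene in the 6 libraries was 2.56 to 6.13. Identifiers of 13952 genes were found in GENCODE 29, the source of the coordinates.

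Limma 3.58.1 (R 4.3.3, with trend) took log2(value + 1) in the 21 libraries of 48 h, with 1 coefficient per group, over 13478 genes that reached 0.5 in 3 or more libraries. The difference between times came from 1 fit of 63 libraries and 13782 genes, and 6 and 24 h from their own fits. P-values are two-sided and adjusted by Benjamini-Hochberg over all genes of a contrast, with calls below 0.05. The added 1 shrinks fold changes of low genes. Adjusted p-values in the text are limma's. Alternatives were the quasi-likelihood test of edgeR 4.0.16 on recovered reads, other filters, pseudocounts and scalings, leaving out libraries, a replicate block and, added after seeing the data, leaving out 2 libraries that stood apart and a term for 4 sets of libraries. PCR copies cannot be told from molecules, so counting error alone may understate the spread of the read totals.

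Named were the 12 largest rises and 12 largest falls by log2 fold change, among called genes whose mean log2 level reached 3 and whose groups did not overlap, every measured Wnt feedback and antagonist gene with a few pathway genes, up to 4 called members of each other list with the smallest p, and the 4 largest in each direction of the other contrasts. Other members were named after their values were seen, and some genes the rule names are not reported here. The members and lists were chosen with earlier results of these data known. Tables were handled with Python 3.11.15 and pandas 2.3.3.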

Additional observations from a re-analysis of the deposited data

Results flagged for a closer look

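The effect of 3 µM Helicon 4 differed between 48 h and 24 h for many genes, tested as an interaction in limma over 63 libraries. The log2 fold change against DMSO was higher at 48 h than at 24 h for 2563 of 13782 genes (18.6%) and lower for 1688 (12.2%), at an adjusted p below 0.05. Centring each library on its median turned that balance, with 1827 higher and 2245 lower.

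Of the 32 Wnt pathway and other genes listed for this comparison, 16 passed the test. The log2 fold change at 48 h minus that at 24 h was -0.88 for WIF1, -0.83 for TNFRSF19, -0.78 for NKD2, -0.76 for NOTUM and -0.56 for APCDD1. It was -0.67 for SP5, -0.28 for RNF43 and -0.26 for BAMBI, and among the transcription factors -0.68 for ASCL2, -0.66 for TCF7 and -0.62 for LEF1. SOSTDC1, an antagonist that rose with Helicon 4, was higher by 0.56. RNF43 lost this call without Helicon 4 replicate 2 at 48 h (adjusted p = 0.053) and with only the 12 libraries concerned (adjusted p = 0.077). AXIN2 and NKD1, at -0.04 and 0.02, did not pass the test.

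Outside the pathway, HDC differed by -0.61, MEP1B by -1.54, LINC01432 by -1.33 and FARS2, a mitochondrial tRNA synthetase, by -1.37. BMF was higher at 48 h by 1.03, TMSB4X by 1.58, TNMD by 1.78, CTNNA2 by 1.98 and GATA2, a transcription factor, by 1.64.

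For 3 of the genes named the call changed direction. MYC was higher than in DMSO at 48 h, with a log2 fold change of 0.18, and lower at 24 h, with -0.29, a difference of 0.47. Its libraries at 24 h held 3223, 2964 and 2902 scaled CPM with Helicon 4 and 3729, 3564 and 3784 with DMSO. MXD3, a partner of MAX that opposes MYC, differed by -1.34, with a log2 fold change of -0.80 at 48 h and 0.54 at 24 h. At 24 h it held 14.2, 15.6 and 16.8 scaled CPM with Helicon 4 and 8.90, 10.5 and 11.9 with DMSO. AKAP12, a kinase anchor, differed by 1.63, with 1.21 at 48 h and -0.42 at 24 h.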

How the results depend on the processing

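For the 237 named log2 fold changes, 3908 alternative values were computed: 3870 kept direction and call, 34 lost the call, 1 gained it (DKK3, 0.45 with the term for sets) and 3 changed sign, none of those called. The sign changes were SFRP1, at -0.029 without Helicon 4 replicate 1 (range over left-out libraries -0.03 to 0.17), CDKN1A, at -0.0097 without DMSO replicate 2 (-0.01 to 0.25), and TCF7L2, at -0.017 without DMSO replicate 2 (-0.02 to 0.12). The lost calls belonged to 11 values, among them DKK2, TPBG, CHGA, RPS9, MT-CO3, KRT19, MT-ND5 (with each peptide), OR51E1 between doses and RNF43 between times. Fitting only the groups compared gave 1326 higher and 1050 lower for Helicon 4-neg against DMSO, and 671 and 707 for 10 against 3 µM, where leaving out the 2 libraries that stood apart gave 651 and 736. Leaving out each library gave 3766 to 3927 higher and 3522 to 3653 lower for Helicon 4 against DMSO, 1092 to 2272 and 876 to 1800 for Helicon 4-neg against DMSO, 58 to 403 and 116 to 393 for 10 against 3 µM, and 1043 to 1311 higher for 3 against 1 µM. The cause of these shifts was not tested. With the replicate block, Helicon 4 against DMSO gave 4094 higher and 3772 lower and no named call changed. Replicate numbers did not pair the libraries: deviations of same-numbered Helicon 4 and DMSO libraries correlated at -0.22 to 0.28. The fit of all 63 libraries was not run as an alternative for the difference between times, which it already is. Depth limits genes of a few reads, such as DKK2 and DKK4.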
